A study of Chlorocebus aethiops with 3 samples.

Results

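RNA helicases related to RNA helicase A (RHA, the product of DHX9) were examined in heavy polysome RNA after siRNAs against RHA, to ask whether messages of other helicases rise when RHA is targeted. The members are 49 RefSeq mRNA identifiers of DHX and DDX genes and of DDX39B, SKIV2L, SKIV2L2, UPF1, MOV10 and SNRNP200, with RHA itself included for comparison. Of the 49 ids, 45 have probes on the array, among 32695 ids in all, and 38 were bright enough to be tested, among 14520 ids tested. Each id is given by its probe with the highest mean log2 signal over both channels. The scanner files give RefSeq accessions without gene symbols, and the labels name the gene of 1 member, RHA (NM_001357). The other members are therefore given by accession, no single id is tied to a gene or to a role, and a gene with 2 accessions counts as 2 members.

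RNA was measured on 3 Agilent 2-colour arrays, 1 for each biological replicate. The Cy5 channel held heavy polysome RNA of COS-7 cells transfected with siRNAs against the coding region of human RHA, at nucleotides 2701 to 2721 and 2784 to 2803. The Cy3 channel held RNA of COS-7 cells given scrambled siRNA. Both groups were transfected at 0.5 nM, kept 4 hours without serum and then 24 hours with 10% fetal bovine serum, and transfected again in the same way after the cells had been split. Heavy polysomes were pooled from sucrose gradients of 15% to 45%. COS-7 is an immortalised African green monkey kidney line with fibroblast-like growth that carries the SV40 large T antigen. The probes and the siRNAs were designed on human sequence. Markers of the cell type could not be looked up without gene symbols. Knockdown RNA was in Cy5 on every array, so a dye effect and an effect of the knockdown cannot be told apart. Total RNA was not analysed here, and a ratio moves with the abundance of an RNA as well as with its ribosome load.

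DEAD-box and DEAH-box proteins are ATP-driven enzymes named after a short conserved motif, and they unwind RNA duplexes or remodel RNA-protein complexes. DEAD-box proteins usually open short duplexes locally, whereas RHA and other DEAH-box proteins can move along a strand. RHA carries double-stranded RNA binding domains and is known to promote polyribosome loading of mRNAs with a structured 5' element. Among its relatives, SNRNP200 unwinds U4/U6 snRNA in the spliceosome, UPF1 is the central factor of nonsense-mediated decay, SKIV2L and SKIV2L2 feed RNA to the cytoplasmic and the nuclear exosome, DDX39B acts in splicing and mRNA export, and MOV10 is associated with silencing complexes and restricts retroelements. Many DDX proteins are needed for ribosome assembly in the nucleolus.

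The RHA message was examined first. Its brightest probe had normalized signals of 206, 198 and 473 in knockdown RNA, against 212, 227 and 717 in control RNA, on replicates 1, 2 and 3. Signals are in arbitrary units after background correction and loess. The knockdown signal was the lower one on each array, and the ranges of the channels overlapped, with replicate 3 brighter in both. The log2 ratios of knockdown over control were -0.041, -0.20 and -0.60 and averaged -0.28 ± 0.29 (SD, n = 3), with a 95% interval from -0.63 to 0.076. The difference was not called (limma adjusted p = 0.221). With each array centred on the median of all its probe spots in place of loess, the mean was 0.26, and with centring on the ids tested it was -0.059. The arrays therefore do not establish that the RHA message fell in heavy polysomes, and the groups keep the names that the labels give them.

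Of the 37 other helicase ids tested, 3 rose and 3 fell relative to the loess curve of the arrays, at a limma adjusted p under 0.05, and 31 passed in neither direction. Among all ids tested, 9.9% rose, 9.33% fell and 19.2% were called in either direction. For the 38 helicase ids the shares were 7.89%, 7.89% and 15.8%, close to that background. At an unadjusted p under 0.05 there were 7 helicase ids above 0 and 6 below it, or 34.2%, beside 35.7% of all ids tested. The median log2 ratio of the helicase ids was 0.059 and that of all ids tested was 0.010. Their median size regardless of sign was 0.20, beside 0.23 for all ids. No helicase id reached a mean log2 ratio of 1 in size, the equivalent of a 2-fold change, which 5.2% of all ids tested reached. Other processing gave larger sizes, with 6 helicase ids at 1 or more with Agilent's processed log ratio (21.4% of all ids), 2 with median centring over all probe spots (13.3%), and 1 each with an offset of 0 (11.7%), with centring on the tested ids (7.07%) and without replicate 1 (3.72%). When both channels had to be well above background, 2 rose and 3 fell among 31 helicase ids, beside 11.9% and 12.5% of all ids. Without replicate 1, 1 helicase id rose and 1 fell, beside 6.21% and 5.56% of all ids. Without replicate 2 none was called among the helicase ids or among all ids, and without replicate 3, 5 rose and 2 fell, beside 9.14% and 9.40%.

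**Figure D1:**
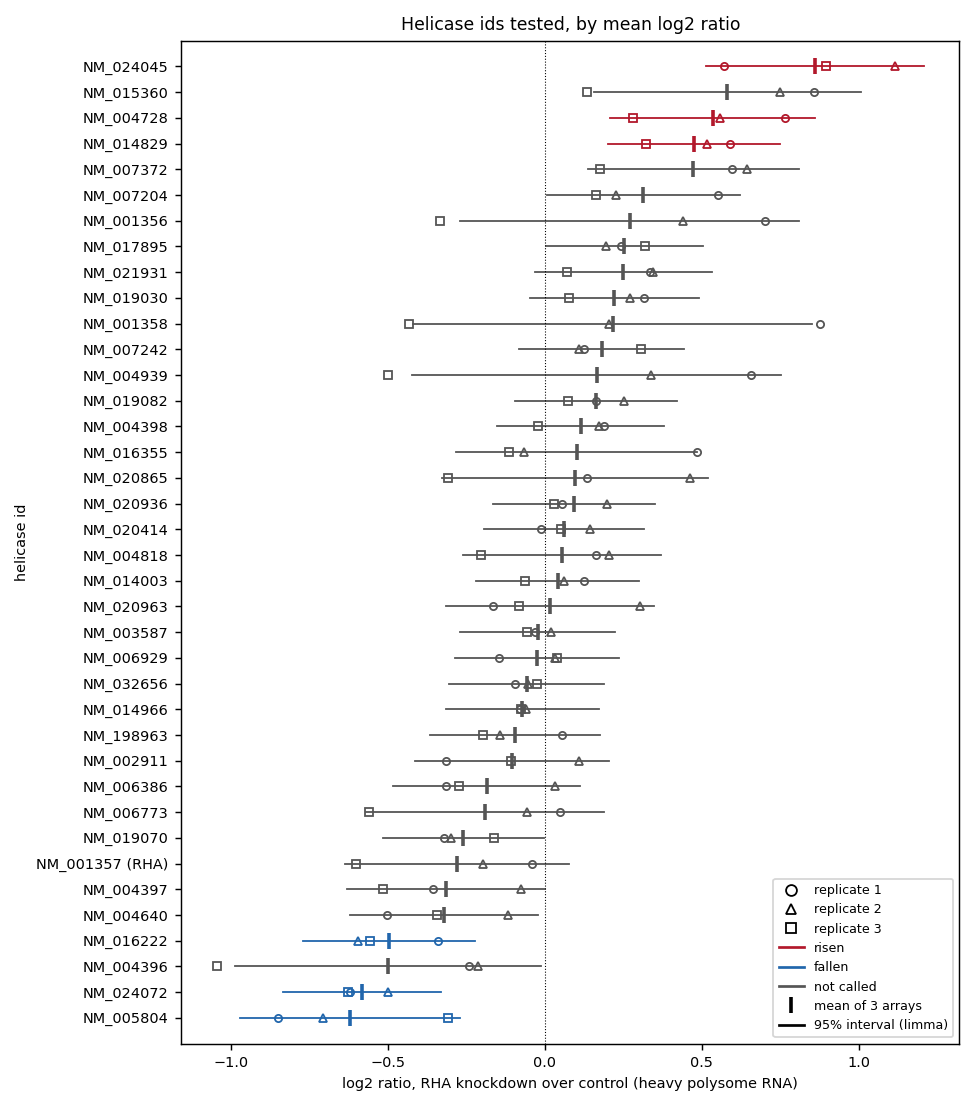
Each row is 1 of the 38 tested helicase ids, ordered by mean log2 ratio of RHA knockdown over control. Open symbols are the 3 arrays, the upright bar is their mean and the line is the 95% interval of the limma fit. The 3 risen ids are at 0.48 to 0.86, the 3 fallen ids at -0.62 to -0.50, and RHA is at -0.28 among the ids not called. Ratios are after loess, and median centring over all probe spots, but not centring on the tested ids, puts RHA and the 3 fallen ids above 0.

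The helicase id with the largest rise was NM_024045. Its normalized signals were 495, 490 and 1274 in knockdown RNA, against 333, 226 and 684 in control RNA. The knockdown signal exceeded the control signal on each array, with the highest log2 ratio on replicate 2. The ranges of the channels overlapped, with replicate 3 brighter in both. Its log2 ratios were 0.57, 1.12 and 0.90 and averaged 0.86 ± 0.27 (SD, n = 3), or 1.82-fold. The 95% interval ran from 0.52 to 1.21, with a limma adjusted p of 0.0208. NM_024045 was called risen in 14 of the 15 alternative ways of processing. The exception was the fit without replicate 2, with a log2 ratio of 0.73 and a limma adjusted p of 0.127. Some alternatives could not change its ratio, since none of its spots was flagged and only the probe used was tested. These were keeping flagged spots, averaging the tested probes and testing all probes. Dropping the filter on dim probes, requiring both channels and letting the variance follow intensity also left its ratio unchanged. These settings altered only its limma adjusted p.

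NM_004728 had normalized signals of 135, 143 and 226 in knockdown RNA, against 79.6, 97.4 and 186 in control RNA. Its control signal stood well above background on 2 of the 3 arrays, so NM_004728 entered the test through the knockdown channel alone, in which it was the brighter, and it was not tested when both channels had to pass. The difference was smallest on replicate 3, where both channels were brightest. Its log2 ratios of 0.76, 0.56 and 0.28 averaged 0.54 ± 0.24 (SD, n = 3), or 1.45-fold, with a limma adjusted p of 0.0446. With an offset of 0 the mean was 1.13, and with Agilent's processed log ratio 1.69. The remaining risen id, NM_014829, had 131, 137 and 238 in knockdown RNA, against 86.8, 96.0 and 191 in control RNA. Here too every array had the knockdown signal above the control signal, and replicate 3 showed the smallest ratio. The log2 ratios of NM_014829 were 0.59, 0.52 and 0.32 and averaged 0.48 ± 0.14 (SD, n = 3), or 1.39-fold, with a limma adjusted p of 0.0392. Without replicate 1 or without replicate 2 neither id passed. Their limma adjusted p was then 0.104 to 0.114 and 0.200 to 0.210. Without a filter on dim probes, NM_004728 had a limma adjusted p of 0.0761.

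The fall was largest for NM_005804, with normalized signals of 546, 488 and 2456 in knockdown RNA, against 984, 797 and 3041 in control RNA. Replicate 3 was several times brighter than the others in both channels and had the log2 ratio nearest to 0. The log2 ratios were -0.85, -0.71 and -0.31 and averaged -0.62 ± 0.28 (SD, n = 3), which is 0.650 times the level in control RNA, with a limma adjusted p of 0.0373. NM_024072 had 246, 245 and 749 in knockdown RNA, against 377, 346 and 1156 in control RNA. Its arrays gave nearly the same ratio. The log2 ratios of NM_024072 were -0.62, -0.50 and -0.63 and averaged -0.58 ± 0.072 (SD, n = 3), which is 0.668 times the level in control RNA, with a limma adjusted p of 0.0236. NM_016222 had 135, 148 and 433 in knockdown RNA, against 171, 222 and 637 in control RNA. The knockdown signal of NM_016222 was the lower one on each array. Its log2 ratios were -0.34, -0.59 and -0.56 and averaged -0.50 ± 0.14 (SD, n = 3), which is 0.709 times the level in control RNA, with a limma adjusted p of 0.0351.

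All 3 falls lost their call, and 1 setting turned their sign, under other normalizations. With median centring over all probe spots, the mean log2 ratios of NM_005804, NM_024072 and NM_016222 were 0.081, 0.012 and 0.0060, a setting in which the median of all ids tested stood at 0.30, 0.53 and 0.12 on replicates 1, 2 and 3. With centring on the median of the ids tested they were -0.24, -0.31 and -0.31, and Agilent's processed log ratio gave -0.65, -0.66 and -0.76. NM_005804 missed the threshold without replicate 1 or 2, with limma adjusted p of 0.0904 and 0.197, and when dim probes were not filtered out, with 0.0732. NM_024072 missed it without replicate 1 or 2, with limma adjusted p of 0.0523 and 0.127, and NM_016222 without replicate 2 or 3, with 0.196 and 0.0883. None of the 3 passed in any of the centring and Agilent settings, while the 3 risen ids passed in each. More ids rose than fell over the whole array in these settings. The shares were 18.9% and 0.317% with centring over all probe spots, and 17.5% and 6.38% with centring on the tested ids. With Agilent's log ratio they were 15.9% and 12.2%. Without replicate 2, limma called 0 of the 38 helicase ids and 0 of all ids tested. At an unadjusted p under 0.05 in that fit, 3 helicase ids were above 0 and 5 below it. Over all ids, 3442 passed in either direction, beside 5186 of 14520 in the reported fit.

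**Figure D2:**
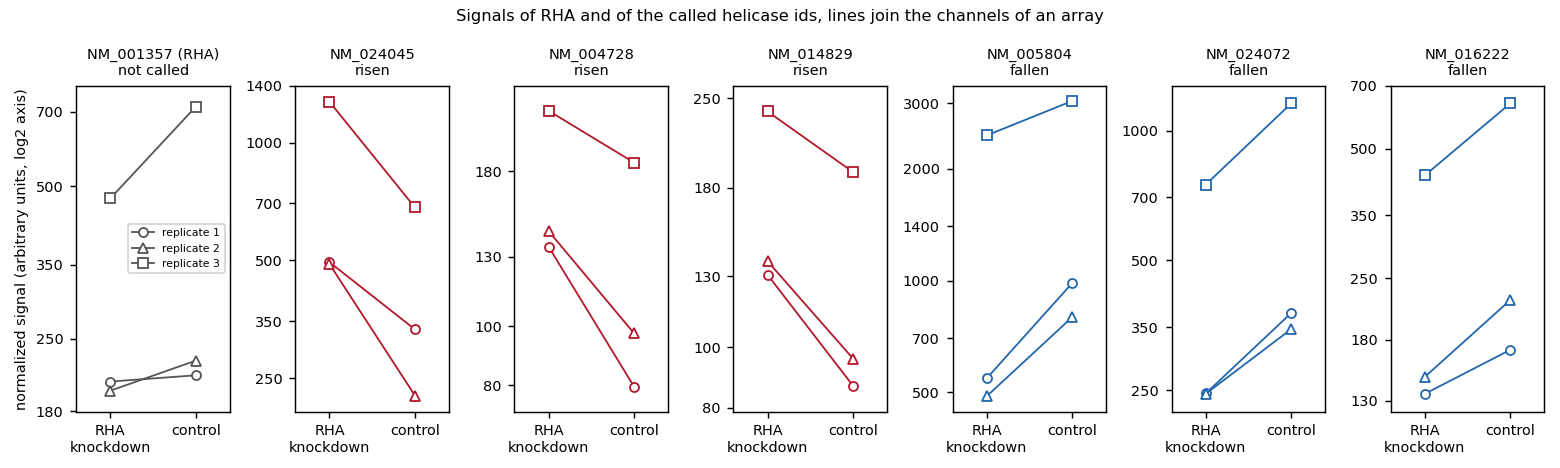
Normalized signal in arbitrary units on a log2 axis, with RHA knockdown at the left and control at the right of each panel, for RHA and for the 6 called helicase ids. A line joins the channels of an array. In the 3 risen ids every line is higher at knockdown, and in RHA and the 3 fallen ids every line is lower there after loess (with median centring over all probe spots, but not on the tested ids, their means lay above 0), while replicate 3 lies above replicates 1 and 2 in all panels.

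The signals of the channels overlapped in all 38 helicase ids when the arrays were not paired. Signals were not scaled between arrays and replicate 3 was the brightest, so this overlap does not measure the differences within arrays. Knockdown signals lay wholly above control signals for 2.2% of all ids tested and wholly below for 0.551%. Within arrays, 12 helicase ids were above 0 on all 3 and 10 below 0 on all 3, so 57.9% kept 1 sign, beside 58.6% of all ids tested.

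The ids nearest to the threshold without passing it included 2 that lay above 0 on every array. NM_007372 had log2 ratios of 0.60, 0.65 and 0.18 and averaged 0.47 ± 0.26 (SD, n = 3), with a limma adjusted p of 0.0644. NM_015360 had 0.86, 0.75 and 0.14 and averaged 0.58 ± 0.39 (SD, n = 3), with a limma adjusted p of 0.0693. Replicate 3 was the lowest array in both. NM_007372 passed as risen in 7 of the 15 alternatives and NM_015360 in 6. Next in that direction was NM_007204, with a mean of 0.31 ± 0.21 (SD, n = 3), at a limma adjusted p of 0.133. Its control signal stood well above background on 2 of the 3 arrays, so NM_007204 was tested through the knockdown channel alone.

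Below 0, the nearest were NM_004640, NM_004396 and NM_019070. NM_004640 had log2 ratios of -0.50, -0.12 and -0.34 and averaged -0.32 ± 0.19 (SD, n = 3), at a limma adjusted p of 0.121. For NM_004396 they were -0.24, -0.21 and -1.04 and averaged -0.50 ± 0.47 (SD, n = 3), at a limma adjusted p of 0.133, and replicate 3 was far below the others. NM_019070 had a mean of -0.26 ± 0.086 (SD, n = 3), at a limma adjusted p of 0.136. All 3 had 1 sign on all arrays by the probe used, and none passed as fallen in any alternative. A second tested probe of NM_004640 had log2 ratios of 0.11, 0.034 and -0.17 and averaged -0.0082 ± 0.15 (SD, n = 3).

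For the ids not called, the intervals give the precision of the reported fit, and not the range over other processing. Of the 32 ids not called, RHA among them, 31 had a 95% interval within 1 of 0 on the log2 scale and 17 had one within 0.5 of 0. The exception was NM_015360, whose interval reached 1.01. Agilent's processed log ratio gave means of 1.13 for NM_007372, 1.09 for NM_007204 and 1.07 for NM_019082. These lay above their intervals in the reported fit, and all 3 were called risen. Of them, NM_007204 and NM_019082 were tested through the knockdown channel alone. Their control signals stood well above background on 2 and 1 of the 3 arrays. The tightest values were those of NM_014966, with log2 ratios of -0.077, -0.061 and -0.074, averaging -0.071 ± 0.0089 (SD, n = 3) with an interval from -0.32 to 0.17. An offset of 50 added to each signal draws the ratios of dim probes toward 0.

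Among the 3 ids with the highest signals, arrays disagreed in 1. The signal of a probe depends on its sequence and labelling as well as on the RNA, so these ids are singled out for their distance from background only. NM_004939 had normalized signals of 1745, 1545 and 3555 in knockdown RNA, against 1106, 1223 and 5024 in control RNA. Its knockdown signal was the higher one on replicates 1 and 2 and the lower one on replicate 3. The log2 ratios of NM_004939 were 0.66, 0.34 and -0.50 and averaged 0.17 ± 0.60 (SD, n = 3), at a limma adjusted p of 0.652. The other ids of high signal were NM_005804 and NM_004396, described above.

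NM_004939 was 1 of 7 helicase ids that lay above 0 on replicates 1 and 2 and below 0 on replicate 3, and 0 ids showed the opposite order. The 7 were 18.4% of the helicase ids, beside 7.87% of all ids tested. NM_001358 was another, with 0.88, 0.21 and -0.43, as was NM_001356, with 0.70, 0.44 and -0.33. The SD over arrays was 0.66 for NM_001358 and 0.54 for NM_001356, beside a median of 0.19 over the helicase ids.

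Replicate 3 gave the lowest ratio in 24 of the 38 helicase ids, RHA among them, or 63.2%, beside 33.1% of all ids tested. Replicates 1 and 2 gave the lowest ratio in 11 and 3 ids. The median log2 ratio of the helicase ids was 0.090, 0.13 and -0.079 on replicates 1, 2 and 3, while that of all ids tested was 0.0050, 0.021 and 0.017. The share lowest in replicate 3 was 55.3% to 65.8% with an offset of 0, no background correction, centring on the tested ids, Agilent's processed log ratio and the series value table, beside 31.0% to 37.4% of all ids. With median centring over all probe spots it was 97.4%, beside 68.0%. These shares are a description of 3 arrays, since the ids share each array and are not replicates.

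Replicate 3 was also the brightest array, with 53.1% of probes well above background in the knockdown channel and 50.7% in the control channel. On replicate 1 the share was 45.5% in the knockdown channel and 37.5% in the control channel, and on replicate 2 it was 46.2% in the knockdown channel and 38.7% in the control channel. The part of this brightness in the lower helicase ratios was not tested. Across the helicase ids, Spearman's rho of the log2 ratios was 0.81 for replicates 1 and 2, 0.50 for 1 and 3, and 0.62 for 2 and 3. For all ids tested it was 0.69, 0.58 and 0.66. The channels of an array share its dyes and normalization, and ids are not independent replicates.

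Different probes of an id were compared where more than 1 was tested, which held for 9 helicase ids. The 2 brightest probes had means of the same sign in 6 of the 9, or 66.7%, beside 73.9% of the 2915 ids with at least 2 tested probes. The median difference between these probes, regardless of sign, was 0.31 on the log2 scale for the helicase ids and 0.21 for all. For RHA the probes were alike, with means of -0.28 and -0.33.

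In 2 called ids another tested probe did not pass. The probe A_23_P30377 gave NM_014829 its rise, with a mean of 0.48, whereas A_32_P105195, for the same id, had log2 ratios of 0.16, 0.025 and -0.14 and averaged 0.014 ± 0.15 (SD, n = 3). The control channel of A_32_P105195 was well above background on 1 of the 3 arrays. For NM_024072 the probe A_32_P430359 had a mean of -0.58, whereas A_23_P162374 had 0.10, -0.11 and -0.13 and averaged -0.048 ± 0.13 (SD, n = 3). Both channels of A_23_P162374 were well above background on all 3 arrays. Neither of these other probes passed the test over all probes, with limma adjusted p of 0.942 and 0.774. With the tested probes of an id averaged, NM_014829 had a mean of 0.25 and NM_024072 one of -0.31, and neither was called, with limma adjusted p of 0.160 and 0.0735. The second probe of NM_024045 was well above background in neither channel on any array and was not tested. The remaining 3 called ids have 1 probe each.

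**Figure D3:**
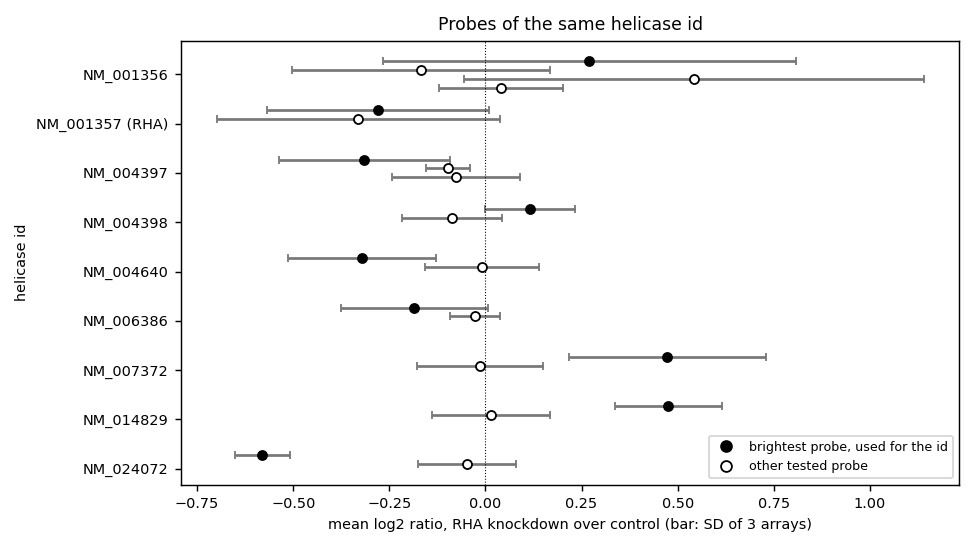
Mean log2 ratio of RHA knockdown over control for every tested probe of the 9 helicase ids with more than 1, with bars of 1 SD over 3 arrays. Filled points are the brightest probes, which stand for the id, and open points are the others. The open points of NM_014829, NM_024072, NM_007372 and NM_004640 lie near 0 while their filled points lie at 0.48, -0.58, 0.47 and -0.32.

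The spread of tested probes of NM_001356 was the widest among these 9 ids. Its 4 probes had means of 0.27, -0.17, 0.54 and 0.041, from the brightest to the dimmest, and all 4 were lowest on replicate 3. The probe with -0.17 had log2 ratios of -0.30, 0.21 and -0.42, and that with 0.54 had 0.95, 0.82 and -0.14. None of these probes passed the test. For NM_007372, the second probe had a mean of -0.014 ± 0.16 (SD, n = 3).

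Error within an array could be read for 1 helicase probe, which the design prints as 10 spots. This was A_23_P56865, the dimmer probe of NM_006773. A_23_P56865 was well above background on 2 arrays in the knockdown channel and 1 in the control channel, and was not tested. The offset draws ratios of such dim probes toward 0, so its spread may not hold for brighter probes. The SD between its spots was 0.080, 0.10 and 0.091 on replicates 1, 2 and 3, around log2 ratios of -0.10, -0.0030 and -0.34. The spread of its means between arrays, 0.17, exceeded that between spots.

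Of the 45 helicase ids on the array 84.4% were tested, beside 58.8% of all 18389 RefSeq mRNA ids there. Of the 38, 31 were well above background in both channels on all 3 arrays. The other 7 passed background in the knockdown channel on all 3 and in the control channel on 1 or 2, and 0 showed the opposite. The matching share over all ids was not computed, and on each array more probes passed in the knockdown channel. All 7 had mean log2 ratios above 0, from 0.018 to 0.54. Passing in the knockdown channel alone favours ratios above 0, so their sign is no evidence of a rise. With both channels required, 15 of 31 helicase ids had a mean above 0, beside 22 of 38 in the reported fit. Of all ids tested in the reported fit, 51.3% had a mean above 0. The knockdown RNA was always in Cy5, so a difference in detection between dyes cannot be told apart from one between groups. NM_004728 was the called id among these 7.

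The 7 ids that were not tested were NM_018180, NM_024612, NM_014014, NM_020162, NM_175066, NM_004941 and NM_014681. Their mean log2 ratios lay between -0.16 for NM_018180 and 0.037 for NM_175066, at signals near background. NM_014014 and NM_175066 were well above background in neither channel on any array. The 4 ids without a probe under their accession were NM_138615, NM_030881, NM_007010 and NM_080598, and they have no value here.

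The count of called helicase ids moved with the processing. Risen ids numbered 7 with a normexp offset of 0, where 15.9% of all ids tested rose, and 6 when the variance was allowed to follow intensity, where 16.1% did. With Agilent's processed log ratio 6 rose and 0 fell, beside 15.9% and 12.2% of all ids. In none of the 15 alternatives was a helicase id that was called risen in the reported fit called fallen, or the reverse.

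**Figure D4:**
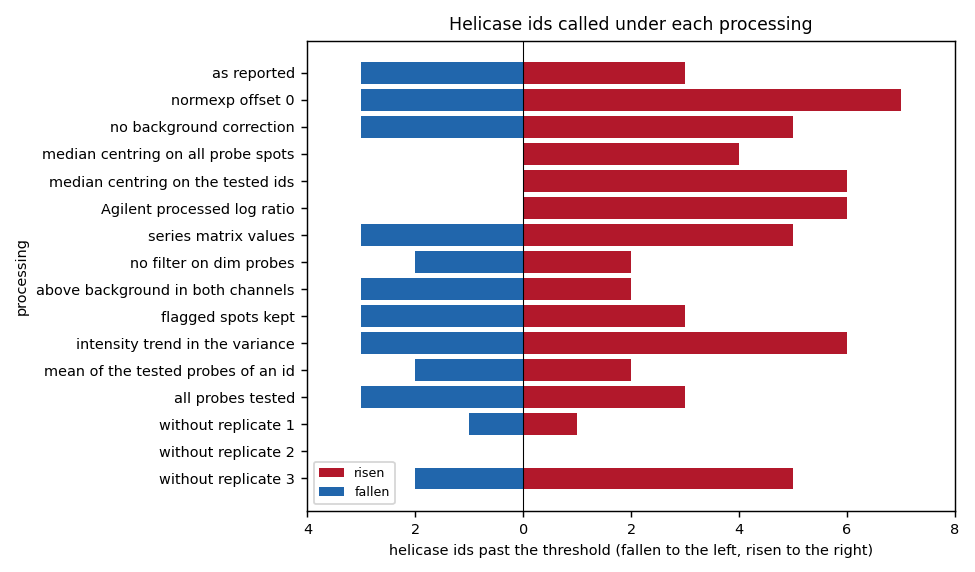
Number of helicase ids past the threshold under each processing, with fallen ids to the left of 0 and risen ids to the right. The counts run from 0 to 7 risen and from 0 to 3 fallen, and both are 0 without replicate 2. Shares over all ids tested, not drawn, moved too, from 0% to 18.9% risen and from 0% to 14.6% fallen. They were also 0% without replicate 2.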

How the data were processed

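Heavy polysome RNA was measured on 3 arrays, each giving 1 ratio of knockdown (Cy5) over control (Cy3). Per the file headers, Agilent Feature Extraction 10.9.1.1 made the deposited intensity values from arrays of design 014850. The submitters' processing notes also name limma. Per the file headers, the deposited log10 ratio is that of Agilent's processed signals. The authors' series table holds log2 ratios with scale, centring and direction not stated. Against loess ratios of the scanner values without background correction, its columns had Pearson's r of 0.994 to 0.995 and slopes of 1.05 to 1.07, with medians of 0, 0.01 and 0.01, so it gives knockdown over control, centred near 0. The authors' flags, deposited as values of 0 or 1 per spot, are other measures used for filtering.

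Median spot signals were corrected with normexp (offset 50) and normalized by loess in R 4.3.3 with limma 3.58.1, with control spots at weight 0. Outlier spots (142 to 150 of 43376 per array, none of them a helicase spot) were left out, and spots of a probe were averaged. An id, represented by its brightest probe, was tested when 1 channel or both of that probe stood well above background on every array. The fit, lmFit and eBayes on an intercept, ran over all ids with Benjamini-Hochberg adjustment, 2-sided, at a threshold of 0.05. It was also run on simulated ratios of independent noise with planted changes. These held no dye effect or shared array effect and skipped normalization, so that run cannot show how such effects bear on the calls. An exact sign-flip test of 1 id cannot go below p = 0.25 with 3 arrays. The number of arrays limits the precision. The labels call the arrays biological replicates.

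The members and lists were chosen with earlier results of these data known. Named ids were RHA, those past the threshold, the nearest on each side of it, those of highest signal, and those with several probes. NM_001356, NM_001358, NM_014966 and the 10-spot probe of NM_006773 were named after their values were seen. The planned role lists, other helicases and cell type markers needed gene symbols and were not computed. No sequences were used here.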

Additional observations from a re-analysis of the deposited data

How the results depend on the processing

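Alternatives changed background, normalization, source, filter, flags, variance model and probes per id, and left out each replicate. Against 3 risen and 3 fallen helicase ids, risen ids numbered 7 with offset 0 (15.9% of all ids rose), 6 with centring on the tested ids (17.5%), Agilent's processed log ratio (15.9%) or the intensity trend (16.1%), and 5 without background correction (12.7%) or with the series table (13.6%). Fallen ids numbered 0 with centring over all probe spots (0.317% of all ids fell), centring on the tested ids (6.38%) and Agilent's log ratio (12.2%). Fits without a replicate called between 0 and 5 risen and between 0 and 2 fallen ids. The median log2 ratio of the helicase ids, 0.059, became 0.28 with median centring over all probe spots and 0.19 with Agilent's log ratio. The sign turned to -0.034 with centring on the tested ids and to -0.022 among the 31 ids with both channels well above background. Without a replicate the median ranged from 0.00063 to 0.11. Median centring over all probe spots turned RHA to 0.26, NM_005804 to 0.081, NM_024072 to 0.012 and NM_016222 to 0.0060. It moved the median of all ids tested to 0.30, 0.53 and 0.12 on replicates 1, 2 and 3. RHA was not called in any alternative, with limma adjusted p from 0.154 to 0.824. The cause of these moves was not tested. No separate paired analysis was possible because each array gives 1 ratio within its pair and the arrays form 1 group. The shares of ids lowest in replicate 3 were computed after the data were seen.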
